A study of Mus musculus with 16 samples.

Results

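Hypoxia response and glycolysis genes were examined as a set of 36 genes, 18 of the glycolytic pathway with its glucose and lactate transporters and 18 of the response to low oxygen. They were taken by symbol from a matrix of 30819 genes, and all 36 were found once each. The set was drawn up from the known roles of the genes, with no threshold on measured values. Earlier results of these data were known when it was chosen, so it is not independent of them. All 36 passed the filter on low values in every comparison.

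RNA was measured by sequencing in macrophages and monocytes sorted from sarcomas that had grown under the skin of C57BL/6J mice. The tumours came from MN/MCA1, a transplantable mouse sarcoma line, and were taken 21 days after the cells were injected. Mice 1 to 4 were C3 wild type and mice 6 to 9 C3 knockout, and each mouse gave 1 macrophage and 1 monocyte library, so that 16 libraries form 4 groups of 4. Complement component C3 is the central protein of complement, a set of blood and tissue proteins that mark targets for immune attack. Both populations were CD45+, CD11b+, Ly6G- and CD11c-. Macrophages were Ly6C- and F4/80+, and monocytes Ly6C+ and F4/80-. All groups carried the same tumour line, and the labels name no treatment and no group without a tumour. The tumour cells themselves carried no C3 deletion that the labels name. The design of the knockout allele is not given in the sources used here.

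Recovered reads ran from 18691461 to 29039358 per library. Normalized reads of C3 itself were 14608 to 16132 in the monocytes of wild types and 4624 to 5204 in those of knockouts, and 3262 to 4830 against 1076 to 1390 in macrophages. The genotypes did not overlap, though reads of the gene remained in the knockouts. Adgre1, which encodes F4/80, ran from 22022 to 28941 in macrophages and from 5448 to 8646 in monocytes. Ly6c2, which encodes Ly6C, ran from 1.64 to 19.1 in macrophages and from 11307 to 19065 in monocytes. Each population was high in the marker it was sorted for. The library kit is not stated to mark strand, so a gene cannot be told apart from an antisense neighbour. Of the members, Ankrd37, Bnip3 and Higd1a share 22.7%, 22.3% and 22.5% of their exon bases with a gene on the opposite strand. Several glycolytic enzymes also have near-identical pseudogene copies, among them Gapdh, Ldha, Aldoa, Pgk1 and Eno1, and their counts are uncertain to the extent that reads were split between copies.

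Hypoxia-inducible factors are transcription factors whose alpha subunits, such as the product of Hif1a, are hydroxylated by the prolyl hydroxylases Egln1 and Egln3 when oxygen is present, and are then degraded. When oxygen is scarce the alpha subunit pairs with Arnt and binds short DNA elements near genes of glucose uptake, glycolysis, lactate export, mitophagy and blood vessel growth. Inflammatory stimuli also raise Hif1a in myeloid cells, and the programme is well known in macrophages and monocytes of poorly perfused tumour regions.

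The core of the element to which these factors bind, ACGTG or GCGTG, was searched on both strands of the 250 bases before each RefSeq start site (GRCm38.p6). Of the 36 members 34 had such a window, and 31 of these (91.2%) held the core in at least 1 window. Counted by window, 41 of 52 (78.8%) held it, beside 12679 of all 32851 windows (38.6%). Member windows were richer in CG, with a median of 18.5 CG pairs against 6. Among windows with at least 10 CG pairs the shares were 35 of 41 (85.4%) for members and 64.2% for all. The stretches printed here are those of 4 genes that fell in knockout monocytes, and of Pgk1, a glycolytic enzyme that did not pass that test, as a comparison. Capitals mark the core on either strand, and bases inside annotated exons were left out.
Slc16a3 (chr11:120948817-120949052, + strand): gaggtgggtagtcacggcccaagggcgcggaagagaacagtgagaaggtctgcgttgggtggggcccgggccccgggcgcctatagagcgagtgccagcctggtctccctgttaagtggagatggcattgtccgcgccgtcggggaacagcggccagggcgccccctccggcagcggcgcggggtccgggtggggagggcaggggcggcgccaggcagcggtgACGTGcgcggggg
Egln3 (chr12:54203875-54204124, - strand): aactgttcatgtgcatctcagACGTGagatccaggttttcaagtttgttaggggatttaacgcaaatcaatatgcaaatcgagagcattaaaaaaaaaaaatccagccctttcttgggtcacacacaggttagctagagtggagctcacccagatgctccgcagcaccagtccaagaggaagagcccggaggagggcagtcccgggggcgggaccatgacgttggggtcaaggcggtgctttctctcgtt
Pdk1 (chr2:71872974-71873223, + strand): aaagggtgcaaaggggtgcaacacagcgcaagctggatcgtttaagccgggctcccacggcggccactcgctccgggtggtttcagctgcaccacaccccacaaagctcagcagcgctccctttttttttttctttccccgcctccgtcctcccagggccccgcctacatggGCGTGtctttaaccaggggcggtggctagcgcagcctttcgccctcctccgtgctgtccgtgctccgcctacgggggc
Ddit4 (chr10:59951835-59952020, - strand): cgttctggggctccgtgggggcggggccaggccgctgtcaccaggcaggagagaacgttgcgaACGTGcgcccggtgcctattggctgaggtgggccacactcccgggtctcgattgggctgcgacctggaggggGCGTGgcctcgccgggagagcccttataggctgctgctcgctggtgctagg
Pgk1 (chrX:106186850-106187099, + strand): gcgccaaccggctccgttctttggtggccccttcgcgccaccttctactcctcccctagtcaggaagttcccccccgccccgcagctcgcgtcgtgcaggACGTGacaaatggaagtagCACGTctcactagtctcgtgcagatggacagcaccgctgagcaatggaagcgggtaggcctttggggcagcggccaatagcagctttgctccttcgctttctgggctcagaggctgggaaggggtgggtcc
The core was present in all 5 stretches, in 2 places in those of Ddit4 and Pgk1 and in 1 place in the others. The whole window of Slc16a3, with its exon bases, held it in 2 places. Another window of Pdk1 (chr2:71874654-71874903), not printed here, held it in 0 places. Bnip3l, which also fell in knockout monocytes, had no window. A match describes these letters only, and no binding was measured here.

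Values are given as normalized reads, that is, reads recovered from the deposited values divided by the size factor of the library. Differences and tests are on the deposited regularized log2 scale, which draws values together. For the members in monocytes, genotype differences in log2 normalized reads were 1.29 times as large. Calls are from limma, at a p under 0.05 after Benjamini-Hochberg adjustment over all genes tested. The main tests weigh a difference against the spread between libraries of a group. They take both libraries of a mouse as separate where both enter. Fits with the mouse as a block use the spread left after the level of each mouse is removed. In bulk libraries of a sorted population, fewer cells of a state and less RNA of a gene per cell cannot be told apart.

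In monocytes, loss of C3 went with lower RNA of 5 of the 36 members. These were the lactate exporter gene Slc16a3, the pyruvate dehydrogenase kinase gene Pdk1, the prolyl hydroxylase gene Egln3, the mTORC1 inhibitor gene Ddit4 and the mitophagy receptor gene Bnip3l. Among all 12867 genes tested 1.92% were called lower, beside 13.9% of the members. No member was called higher by limma, beside 1.4% of all genes, and none was higher at an unadjusted p under 0.05 or by limma-voom. The estimate was below 0 for 35 of the 36, and the median was -0.21 over the members against -0.01 over all genes tested. In 9 members the 4 knockout libraries all lay below the 4 wild-type libraries, as in 6.13% of all genes.

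The glycolysis members were ordered along the pathway, from glucose entry to lactate export. Slc2a1, the main glucose transporter gene, had 15525, 22183, 16478 and 18380 normalized reads in wild-type monocytes (mice 1 to 4) and 10734, 16320, 14077 and 11562 in knockout monocytes (mice 6 to 9). Only the knockout library of mouse 7 reached into the wild-type range, and the difference did not pass (-0.35 ± 0.11, SE, adjusted p = 0.116 by limma). The hexokinase genes Hk1 and Hk2, which trap glucose as its phosphate, had differences of -0.16 and -0.08, and neither passed. Gpi1, which converts glucose phosphate to fructose phosphate, had 17419, 23356, 22159 and 21091 against 13532, 18517, 15584 and 13179. Again mouse 7 alone of the knockouts overlapped the wild types (-0.35 ± 0.09, adjusted p = 0.0627 by limma).

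The phosphofructokinase genes Pfkl and Pfkp, which catalyse the committed step, had differences of -0.21 and -0.08. Those of Pfkfb3 and Pfkfb4, whose products set the level of the activator fructose bisphosphate, were -0.08 and 0.08. None of these 4 passed, and Pfkfb4 was the only member with an estimate above 0. For the enzymes of the lower pathway, Aldoa, Aldoc, Tpi1, Gapdh, Pgk1, Pgam1, Eno1 and Pkm, differences ran from -0.29 for Pgam1 to -0.01 for Aldoc, and none passed. Ldha, the lactate dehydrogenase subunit gene, had 52918, 62906, 59292 and 60337 against 49844, 52060, 51150 and 42560 normalized reads, without overlap, but it did not pass (-0.20 ± 0.07, adjusted p = 0.145 by limma).

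Slc16a3 (chr11:120948480-120960868, + strand), which encodes the lactate exporter MCT4, was the only glycolysis member called. It had 16439, 21954, 17035 and 20681 normalized reads in wild-type monocytes and 11648, 13676, 11997 and 9979 in knockout monocytes. The groups did not overlap, with mouse 9 lowest and mouse 7 highest of the knockouts, and the mean was 1.61-fold lower in knockouts. The difference was -0.51 ± 0.09 (SE, n = 4 against 4, limma adjusted p = 0.00734). It passed in all 15 alternative settings, with adjusted p from 7.43e-06 to 0.0393.

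Among the hypoxia members, Egln3 (chr12:54178981-54203860, - strand) had the largest difference. Its product marks hypoxia-inducible factors for degradation, and the gene is itself one of their targets. Wild-type monocytes had 2912, 4377, 3291 and 3010 normalized reads and knockout monocytes 1255, 2243, 1493 and 936. The groups did not overlap, and the mean was 2.29-fold lower in knockouts (-0.96 ± 0.19, SE, limma adjusted p = 0.0261). The related Egln1 differed by -0.14 and did not pass (adjusted p = 0.58 by limma).

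Pdk1 (chr2:71873224-71903858, + strand) encodes a mitochondrial kinase that inhibits pyruvate dehydrogenase. It had 3144, 4060, 3436 and 3696 normalized reads in wild-type and 2470, 2959, 2452 and 1907 in knockout monocytes, again without overlap. Its mean was 1.47-fold lower (-0.40 ± 0.09, SE, limma adjusted p = 0.0332). Ddit4 (chr10:59949669-59951834, - strand), whose product REDD1 restrains mTORC1 under hypoxia and other stress, had 902.8, 1056, 1092 and 1054 against 551.4, 743.6, 772.8 and 432.2. Its groups did not overlap, and its mean was 1.64-fold lower (-0.57 ± 0.13, SE, limma adjusted p = 0.0335). Bnip3l (chr14:66985239-67008877, - strand), whose product tags mitochondria for autophagy, had 2437, 2661, 2528 and 2771 against 1834, 2220, 1776 and 1397. The mean was 1.44-fold lower without overlap (-0.40 ± 0.09, SE, limma adjusted p = 0.0302).

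These calls rest on few libraries. Apart from Slc16a3, each of the 5 lost its call in 5 to 9 of 15 alternatives, with adjusted p up to 0.0993. The number of members called was 1 without wild-type mouse 2, 3 or 4 or knockout mouse 6, 2 without knockout mouse 8, 3 without knockout mouse 9 and 12 without knockout mouse 7. It was 15 when all 16 libraries shared 1 fit and 2 with no filter or with limma without trend and robust estimation. The number of all genes called, in either direction, moved too, from 427 to 981 with all 16 libraries, 296 with no filter, 286 without trend and robust estimation and 237 to 459 with 1 monocyte library left out. Without knockout mouse 7 it was 459, and without knockout mouse 6 it was 417. By the authors' deposited table, 17 members had an adjusted p under 0.05, all lower in knockouts, beside 5.63% of its 14087 genes.

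Further hypoxia members were lower in most knockout libraries without passing. Ankrd37, Bnip3 and Higd1a did not overlap between genotypes, with differences of -0.41, -0.42 and -0.22, but did not pass (adjusted p = 0.0624, 0.0706 and 0.0929 by limma). Ndrg1, a stress gene strongly raised by low oxygen, had 4472, 6919, 5217 and 4940 normalized reads against 2379, 4799, 3329 and 2922 (-0.54 ± 0.16, adjusted p = 0.106 by limma). Mouse 7 alone overlapped the wild types. Ak4, a mitochondrial adenylate kinase gene, had 494, 804.8, 529.7 and 572.3 against 259.3, 597.7, 297.2 and 287.6 (-0.59 ± 0.19, adjusted p = 0.136 by limma), and there too mouse 7 stood apart from the other knockouts. Hilpda, a lipid droplet gene, had 5240, 8536, 5301 and 5910 against 2278, 5817, 4807 and 2472. Its knockout libraries split into a higher pair, mice 7 and 8, and a lower pair, mice 6 and 9 (-0.58 ± 0.24, adjusted p = 0.257 by limma).

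Hif1a (chr12:73901375-73947530, + strand), the gene of the oxygen-regulated subunit, had 19363, 20850, 12868 and 18738 normalized reads in wild-type and 13808, 19788, 18689 and 17257 in knockout monocytes. The groups overlapped over most of their range (-0.03 ± 0.12, SE, limma adjusted p = 0.934). The remaining hypoxia members P4ha1 and P4ha2 (collagen prolyl hydroxylases), Kdm3a (a histone demethylase), Mif (a cytokine), Adm (the vasodilator adrenomedullin) and Mxi1 (a Myc antagonist) had differences from -0.69 for Adm to -0.10 for Kdm3a, and none passed.

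**Figure D1:**
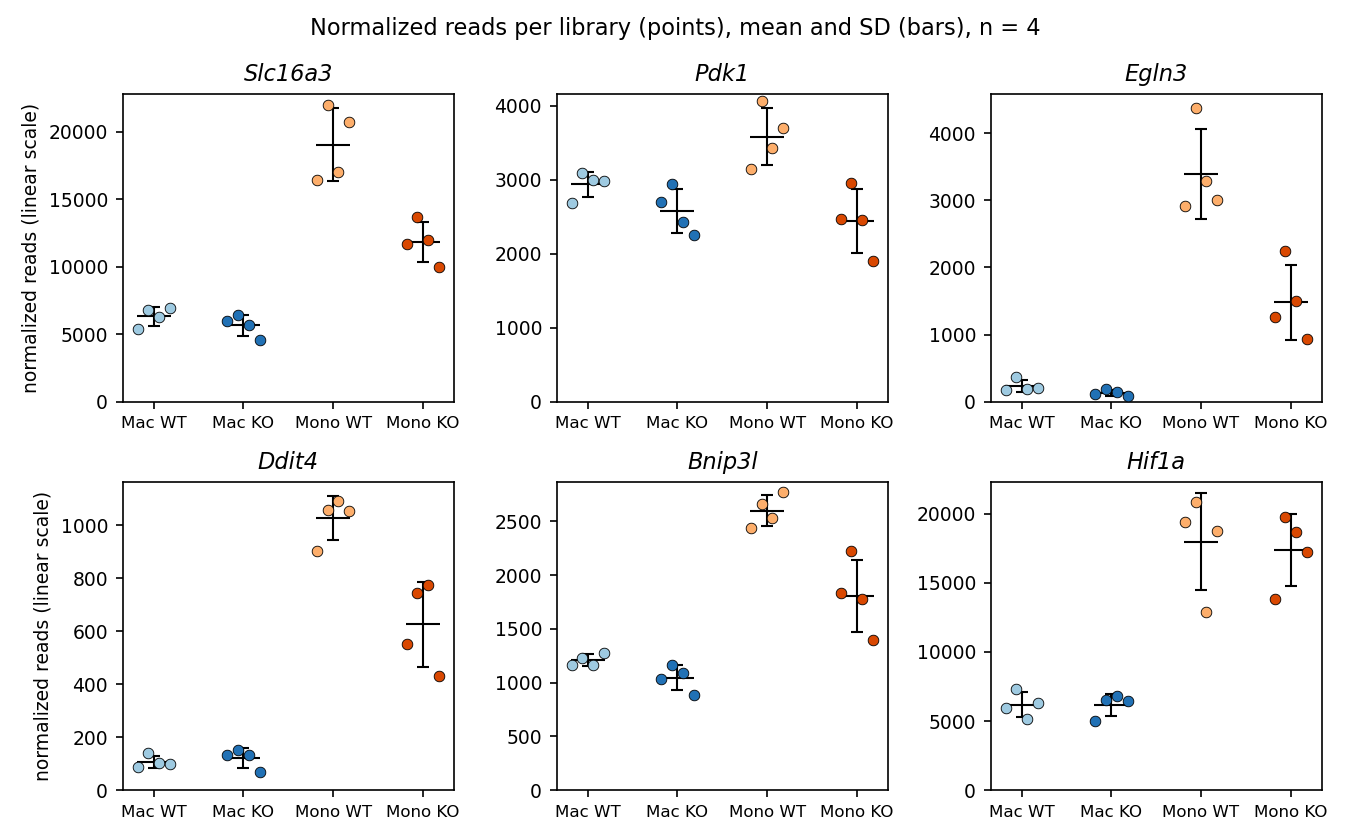
Normalized reads (linear scale, from 0) in each library of the 4 groups for the 5 members that fell in knockout monocytes and for Hif1a. Points are libraries, bars the mean and SD of 4; Mac is macrophages, Mono monocytes, WT wild type and KO knockout. The wild-type and knockout monocytes do not overlap for the 5 genes that fell and overlap for Hif1a.

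Other gene lists moved in the same monocyte comparison. Of 14 proliferation genes 2 fell and none rose, with a summed level of 4693 to 8123 normalized reads in wild-type and 3850 to 4444 in knockout monocytes. All 14 had estimates below 0 (median -0.51), and 10 were lower at an unadjusted p under 0.05 by limma. The 4 red cell genes summed to 1430 to 3569 against 308.7 to 1274. Limma called 0 of them and limma-voom 1, and all 4 were lower at an unadjusted p under 0.05. The 10 neutrophil genes summed to 5648 to 7893 against 4795 to 8112. Of the 7 tested 1 rose, Retnlg, and 4 had estimates below 0 (median -1.36). At an unadjusted p under 0.05, 3 were lower, and limma-voom called 1 lower. S100a8, a gene of this list singled out after its values were seen, was not called by limma. It had 1289, 2560, 1477 and 1802 normalized reads in wild types and 319.4, 855.6, 465 and 27.6 in knockouts, without overlap. Retnlg went the other way, with 19.8, 6.42, 29.1 and 69.8 in wild types and 151.2, 431.4, 223.8 and 282.7 in knockouts, also without overlap. The 15 fibroblast and sarcoma genes summed to 18717 to 23526 against 14790 to 21793, and limma and limma-voom called 0 of the 11 tested, with 0 at an unadjusted p under 0.05. Of 12 genes raised by tissue dissociation 2 fell, with sums of 480736 to 663381 against 375095 to 686883. Of 6 endothelial and epithelial markers tested 2 rose, with sums over all 7 of 477.5 to 686.8 against 680.2 to 795.6. Of 6 dendritic cell markers tested 1 rose and 1 fell, with sums over all 8 of 3784 to 5242 against 2918 to 3839. In these lists 1 endothelial or epithelial marker was at 0 in every wild-type library, and no other gene was at 0 in every library of either monocyte group. The part of these in the members' difference was not tested.

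In macrophages 1 of 36 members was called between genotypes, Pfkp (chr13:6579768-6648777, - strand), the platelet-type phosphofructokinase gene. It had 5827, 5971, 6480 and 6040 normalized reads in wild-type and 6908, 7083, 8213 and 6970 in knockout macrophages. All 4 knockouts lay above the wild types, and the mean was 1.20-fold higher (0.18 ± 0.05, SE, limma adjusted p = 0.0488). That 1 member is 2.78% of the 36, beside 2.57% of the 12568 genes tested. The call was lost in 11 of 15 alternatives, among them the authors' deposited table (adjusted p = 0.0827) and the fits without wild-type mouse 1, 2, 3 or 4 or knockout mouse 7, 8 or 9, with adjusted p up to 0.152. In the same comparison all 4 red cell genes fell, from sums of 427.5 to 1272 normalized reads to 145.1 to 241.7, and 3 of 9 macrophage markers fell, with sums of 818339 to 959302 against 655859 to 784967. Of 11 fibroblast and sarcoma genes tested limma and limma-voom called 0, with 9 estimates below 0 and 2 above (median -0.86). At an unadjusted p under 0.05 by limma, 5 were lower. Sums over all 15 were 4183 to 6990 against 3026 to 4570, with 1 gene at 0 in every knockout library. The part of these lists in the Pfkp difference was not tested.

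No member was called lower in knockout macrophages by limma, beside 3.13% of all genes. At an unadjusted p under 0.05, 8 members were lower, 22.2% of the 36 beside 10.8% of all genes, and limma-voom called none. Without knockout mouse 7, Bnip3 and Mif were called lower (adjusted p = 0.0198 and 0.0448 by limma). No member had all knockout libraries below all wild types, as against 7.03% of all genes. The members' median was -0.08 against 0.00 over all genes, and 28 of 36 estimates were below 0. In the authors' deposited table for macrophages no member had an adjusted p under 0.05, beside 6.07% of its genes.

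The 5 members that fell in monocytes were not called in macrophages. Slc16a3 had 5359, 6754, 6256 and 6940 normalized reads in wild-type and 5983, 6402, 5665 and 4579 in knockout macrophages, which overlapped (-0.11, adjusted p = 0.46 by limma). Egln3 had 172.9, 369.2, 192.1 and 205.4 against 115, 186.8, 146.1 and 82.4, with only mouse 7 of the knockouts inside the wild-type range (-0.49, adjusted p = 0.155 by limma). Ddit4 had 85.5, 140.3, 102.5 and 98.0 against 133.4, 153.2, 131.3 and 68.3, so that 3 of 4 knockouts lay above 3 of 4 wild types (0.10, adjusted p = 0.788 by limma). Pdk1 and Bnip3l had differences of -0.14 and -0.15, and neither passed. Hif1a had 5944, 7323, 5122 and 6334 against 4993, 6492, 6790 and 6417 with wide overlap (0.00 ± 0.08, adjusted p = 1 by limma).

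**Figure D2:**
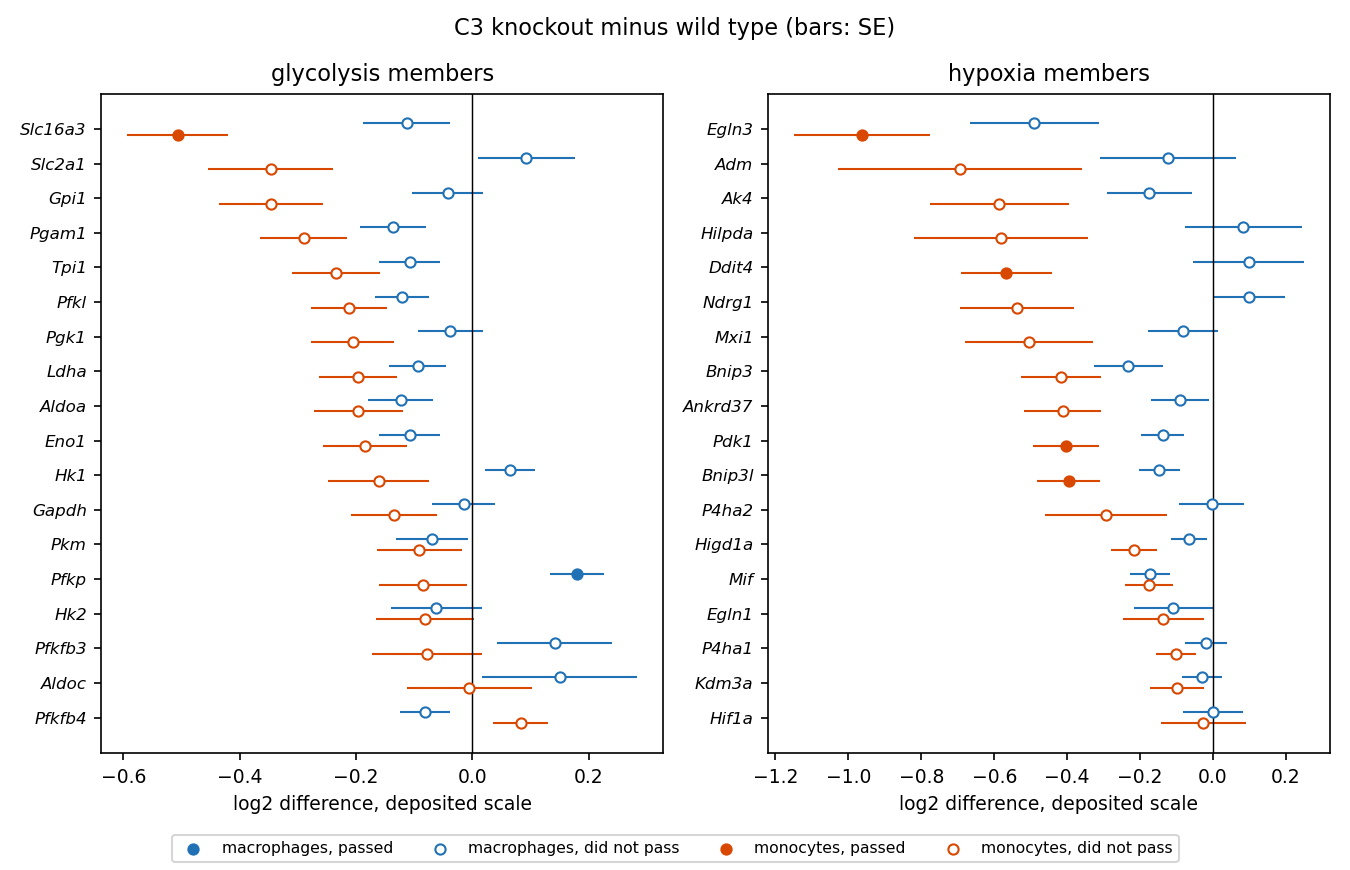
Knockout minus wild type (log2 difference on the deposited scale, with SE) for each member in macrophages and monocytes, glycolysis members on the left and hypoxia members on the right, with different axis ranges. Filled points passed limma at an adjusted p under 0.05; in monocytes 35 of 36 points lie below 0, and in macrophages 28 of 36.

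Whether the knockout effect differed between the cell types was tested in all 16 libraries. By limma none of the 36 members was called, beside 0.617% of the 13134 genes tested, and limma-voom called none. At an unadjusted p under 0.05 there were 10 members with the more positive effect in macrophages and 1 with the more negative, beside 6.62% and 4.8% of all genes. The median difference of effects was 0.18 over the members and 0.01 over all genes, and 35 of 36 estimates were above 0. Since each mouse gave both libraries, the fit was repeated with the mouse as a block. With the mouse as a block 7 members were called (19.4% of 36), all with the more positive effect in macrophages, beside 1.26% of all genes. Without knockout mouse 7's monocytes the unblocked fit called 1 member, Ndrg1 (adjusted p = 0.0401 by limma). The 14 proliferation genes had a median difference of effects of 0.50, and all 14 were above 0. Their part in the members' difference was not tested.

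The 7 genes called with the block were Slc2a1, Gpi1 and Slc16a3 of glycolysis and Egln3, Ddit4, Ndrg1 and Hilpda of the hypoxia response. For Slc2a1 the difference of effects was 0.44 (blocked adjusted p = 0.00364 against 0.233 without the block, limma). Its macrophage libraries had 4594, 6666, 5304 and 5758 normalized reads in wild types and 5530, 6709, 6956 and 5293 in knockouts, which overlapped. For Slc16a3 the difference was 0.39 (0.00405 against 0.19), for Ndrg1 0.64 (0.00355 against 0.216) and for Ddit4 0.66 (0.0122 against 0.207). For Hilpda it was 0.67 (0.00843 against 0.449), for Egln3 0.47 (0.0208 against 0.591) and for Gpi1 0.30 (0.0228 against 0.297). In macrophages Ndrg1 had 622.4, 809.2, 726.7 and 661.8 normalized reads in wild types and 721, 1072, 746.5 and 636.4 in knockouts, and Hilpda 1389, 2003, 1250 and 1313 against 1407, 2174, 1886 and 1104. Gpi1 had 8770, 9692, 9527 and 9746 in wild types and 8495, 10378, 9753 and 7758 in knockouts. All 3 genes overlapped between genotypes there. The Ndrg1 and Hilpda macrophage estimates were 0.10 and 0.08, against -0.54 and -0.58 in monocytes.

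The members were lower in macrophages than in monocytes of the same tumours. In wild-type mice 33 of 36 (91.7%) were called lower in macrophages, 17 of 18 for glycolysis and 16 of 18 for the hypoxia response, beside 31.7% of the 12769 genes tested. None was called higher by limma, beside 31.7% of all genes, none was higher at an unadjusted p under 0.05, and limma-voom called none higher. In 32 members the 4 macrophage libraries all lay below the 4 monocyte libraries, as in 27.8% of all genes. The median was -0.77 over the members and -0.01 over all genes. Monocyte libraries of wild-type mice enter this comparison and that of genotypes in monocytes, so these comparisons are not independent.

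The 5 largest differences in wild-type mice were all hypoxia members. Egln3 had 172.9, 369.2, 192.1 and 205.4 normalized reads in macrophages against 2912, 4377, 3291 and 3010 in monocytes, and its mean was 14.5-fold lower (-2.81 ± 0.16, SE, limma adjusted p = 4.35e-07). Ddit4 had 85.5 to 140.3 against 902.8 to 1092, a mean 9.63-fold lower (-2.31 ± 0.10, limma adjusted p = 5.78e-09). Ndrg1 had 622.4 to 809.2 against 4472 to 6919, a mean 7.64-fold lower (-2.09 ± 0.10, limma adjusted p = 4.97e-08). The groups lay far apart for all 3.

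Ankrd37, which encodes an ankyrin repeat protein, had 193.8, 266, 230.8 and 218.1 normalized reads in wild-type macrophages and 1157, 1528, 1194 and 1291 in monocytes. Its mean was 5.69-fold lower (-1.78 ± 0.08, limma adjusted p = 1.26e-08). Ak4 had 125.4, 149.3, 139.4 and 99.7 against 494, 804.8, 529.7 and 572.3, a mean 4.67-fold lower (-1.57 ± 0.12, limma adjusted p = 7.27e-07). Hif1a itself had 5122 to 7323 normalized reads in macrophages and 12868 to 20850 in monocytes, a mean 2.90-fold lower (-1.09 ± 0.11, limma adjusted p = 2.1e-05). Among glycolysis members the transporters led, with Slc2a1 3.25-fold and Slc16a3 3.01-fold lower, and the enzymes ran from 2.61-fold lower for Pfkp to 1.37-fold lower for Aldoa, leaving out Pfkfb4.

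The 3 members not called in wild-type mice were Pfkfb4 (-0.02), P4ha2 (-0.09) and Adm (-0.46). Pfkfb4 ran from 3496 to 4032 normalized reads in macrophages and from 3773 to 3925 in monocytes, which overlapped. Adm had 109.3, 135.8, 75.7 and 83.7 against 250.7, 142.5, 199.1 and 82.9, with monocytes of mouse 4 at the level of macrophages. With the mouse as a block Adm was called (limma adjusted p = 0.0485 against 0.0998), and so it was without the monocytes of wild-type mouse 4 (0.00681).

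In knockout mice 32 of 36 members (88.9%) were called lower in macrophages, beside 29.6% of the 12772 genes tested, and 30 did not overlap, as in 26.7% of all genes. None was called higher by limma, beside 31.0% of all genes, none was higher at an unadjusted p under 0.05, and limma-voom called none higher. The exception among the alternatives was the fit without knockout mouse 7's monocytes, in which P4ha2 passed as higher in macrophages (adjusted p = 0.0431 by limma). The median was -0.58 over the members and 0.00 over all genes. Egln3 was 11.2-fold, Ddit4 5.14-fold, Ndrg1 4.23-fold and Ankrd37 4.33-fold lower in macrophages, Slc2a1 2.15-fold and Slc16a3 2.09-fold lower.

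Members not called in knockout mice were Aldoc, Pdk1, P4ha2 and Adm. Pdk1 had 2694, 2943, 2431 and 2256 normalized reads in knockout macrophages and 2470, 2959, 2452 and 1907 in knockout monocytes, which overlapped (0.06 ± 0.09, adjusted p = 0.578 by limma). In wild types its macrophages had 2692, 3086, 3003 and 2982 and all lay below the monocytes (-0.20, adjusted p = 0.00993 by limma). Aldoc was called with the mouse as a block (limma adjusted p = 0.00869 against 0.232). Hilpda passed (0.0334) but was lost in 6 of 14 alternatives, including those without macrophages of mouse 6, 8 or 9 or monocytes of mouse 7 or 8. P4ha1 passed (0.0295) but was lost in 4 of 14, including those without macrophages of mouse 6 or monocytes of mouse 7 or 8.

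**Figure D3:**
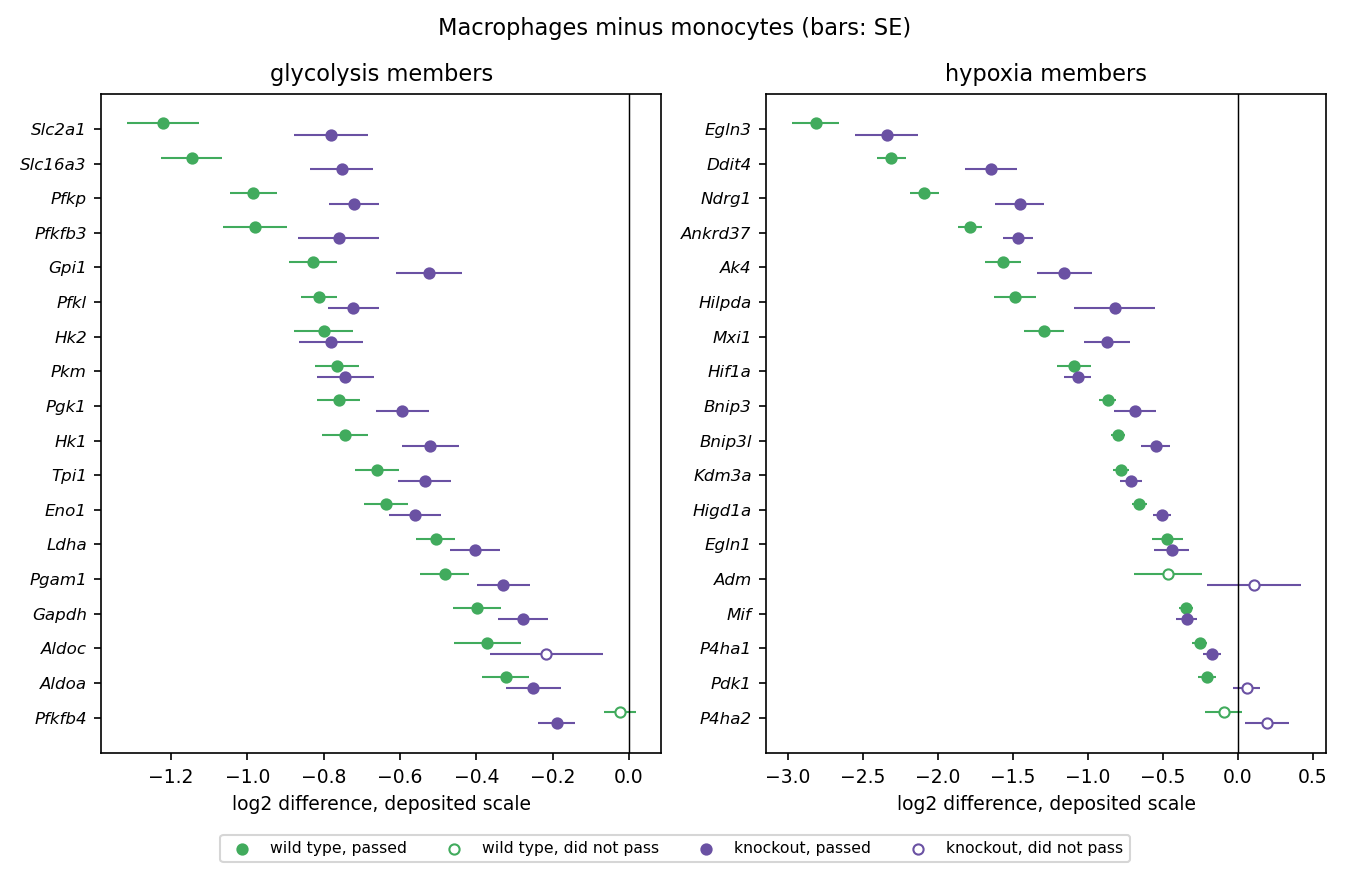
Macrophages minus monocytes (log2 difference on the deposited scale, with SE) for each member in wild-type and knockout mice, with different axis ranges in the left and right panels. Filled points passed limma at an adjusted p under 0.05; Egln3 and Ddit4 lie farthest below 0 in both genotypes, and P4ha2, Adm and Pdk1 lie above 0 in knockouts without passing.

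Other lists also differed between the sorted populations. In wild-type mice all 14 proliferation genes were higher in macrophages, with sums of 22103 to 26545 normalized reads against 4693 to 8123 in monocytes. Of 12 dissociation genes 9 were lower and 1 higher in macrophages, with sums of 244513 to 307887 against 480736 to 663381. Of 12 fibroblast and sarcoma genes tested 9 were lower and 1 higher, with sums over all 15 of 4183 to 6990 against 18717 to 23526, and all 6 neutrophil genes tested were lower, with sums over all 10 of 1718 to 2085 against 5648 to 7893. All 4 red cell genes were lower in macrophages (median -1.19), with sums of 427.5 to 1272 against 1430 to 3569. In knockout mice all 14 proliferation genes were higher in macrophages, and all 4 red cell genes (median -1.26), all 5 neutrophil genes tested, 8 of 10 fibroblast and sarcoma genes tested and 8 of 12 dissociation genes were lower, with 1 dissociation gene higher. None of these genes was at 0 in every library of either wild-type group. The part of these in the members' difference was not tested.

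Per kilobase of exon, the members' levels spread widely. In wild-type monocytes the highest mean levels were those of Aldoa (18466 normalized reads per kilobase), Pkm (17995) and Ldha (17784), and the lowest those of P4ha2 (32.5) and Egln1 (93.6). In wild-type macrophages the same 3 enzyme genes were highest, at 13501, 8598 and 10942 per kilobase. Together the 36 members took 1.93% to 2.27% of reads in wild-type monocytes, 1.58% to 1.94% in knockout monocytes, 1.16% to 1.26% in wild-type macrophages and 0.987% to 1.19% in knockout macrophages.

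Within each group the members moved together from mouse to mouse. Wild-type mouse 2 was the highest of 4 for 30 of 36 members in macrophages and for 30 in monocytes. Wild-type mouse 1 was lowest for 26 and 31. Knockout mouse 7 was highest for 23 in macrophages and 26 in monocytes, and knockout mouse 9 lowest for 27 and 22. The members' median deviation from the group mean was 0.08 and 0.12 for mouse 2, 0.11 and 0.17 for mouse 7 and -0.12 and -0.14 for mouse 9 (log2, macrophages and monocytes). The median over all genes stayed between -0.01 and 0.02 in every library. The scaling of the libraries keeps that median near 0, so it cannot show whether the shift is particular to the members. The members share each library and its scaling, so these counts describe 8 mice and are not 36 separate observations.

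**Figure D4:**
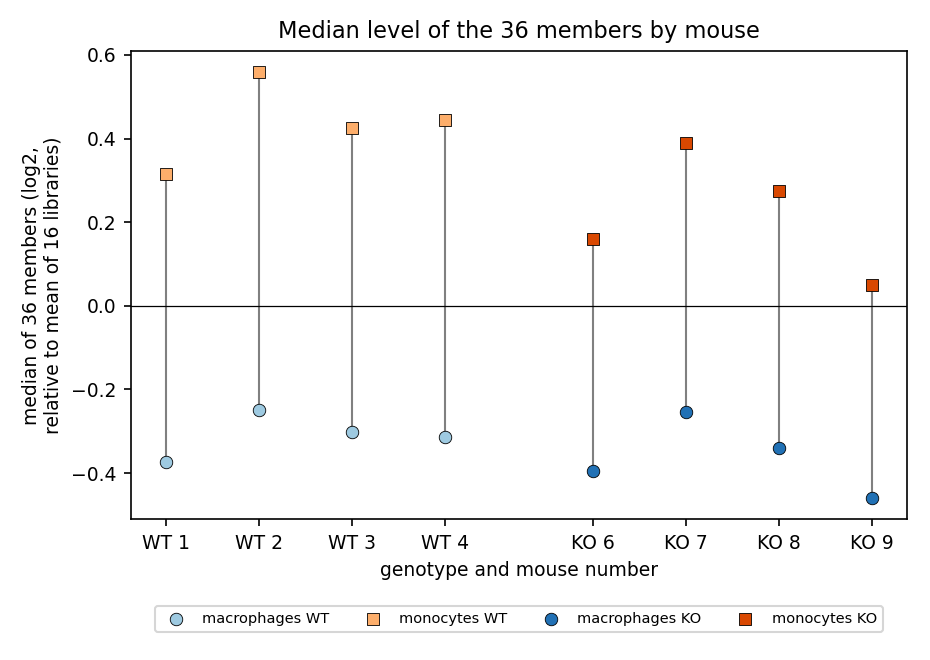
Median over the 36 members of the log2 value relative to the mean of all 16 libraries, by mouse, with a line joining the macrophages and the monocytes of 1 mouse. Monocytes of all 8 mice lie above 0 and macrophages below, mouse 2 is highest of the wild types and mouse 7 highest of the knockouts in both cell types.

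**Figure D5:**
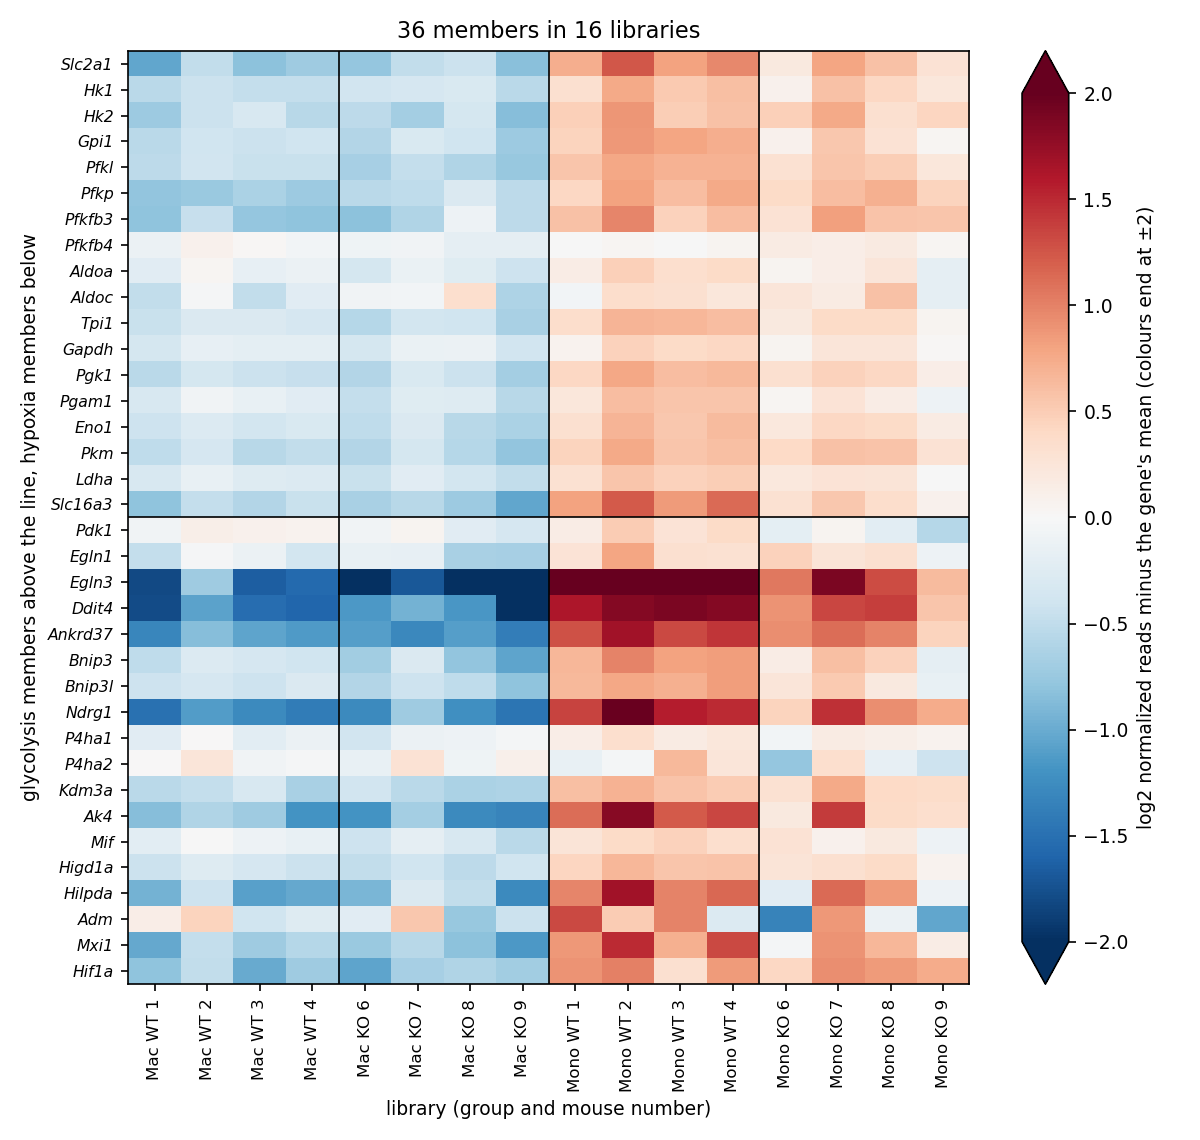
Log2 normalized reads of each member in each of the 16 libraries, relative to the gene's mean over all libraries (blue below, red above, colours end at ±2). The monocyte columns are red for most members, with Egln3, Ddit4 and Ndrg1 darkest in the wild-type columns, and paler for most members in the knockout columns.

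Genes of the same pathways outside the set were counted from lists by role. Of 20 other glycolysis, gluconeogenesis and glycogen genes tested in monocytes 1 fell and none rose between genotypes (median -0.10). That gene was Pygl, a glycogen phosphorylase, with 9127, 12349, 11351 and 10889 normalized reads in wild types and 7225, 8211, 6670 and 5568 in knockouts, without overlap. Its difference was -0.50 ± 0.09 (limma adjusted p = 0.0125), against 0.06 in macrophages, where it did not pass. Of 33 other targets of hypoxia-inducible factors tested 2 fell and none rose in monocytes (median -0.20). These were Fam162a, a mitochondrial protein gene, with 1640, 2000, 2062 and 2042 against 1410, 1467, 1436 and 1230, and Selenbp1, a methanethiol oxidase gene, with 1212, 1658, 1745 and 1513 against 651.9, 1151, 700.4 and 662.2. Neither overlapped (-0.35 and -0.73, limma adjusted p = 0.0164 and 0.0171).

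The Fam162a call was lost without the monocytes of wild-type mouse 3 or 4 or knockout mouse 9, and the Selenbp1 call without those of wild-type mouse 2, 3 or 4 or knockout mouse 8 or 9. Of 16 genes of the hypoxia-inducible factor machinery tested in monocytes 1 fell, Cited4, a transcriptional coregulator, with 24.7, 19.3, 47.0 and 32.7 against 7.5, 3.6, 14.5 and 9.8 normalized reads (-0.97, limma adjusted p = 0.0402). Leaving out wild-type mouse 1, 3 or 4 or knockout mouse 6, 7 or 9 ended that call. Of 8 pentose phosphate genes limma and limma-voom called 0 in monocytes, with 2 lower at an unadjusted p under 0.05. Of 11 genes of mTORC1, Myc and Atf4 signalling both called 0, with 1 higher and 1 lower at an unadjusted p under 0.05.

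In macrophages Epas1, which encodes the alternative oxygen-regulated subunit, had 6.7, 3.4, 15.7 and 11.8 normalized reads in wild types and 41.4, 72.9, 22.2 and 62.1 in knockouts. All knockouts lay above all wild types, at low levels, and the mean was 5.29-fold higher (1.32 ± 0.26, SE, limma adjusted p = 0.0116). It was the 1 gene called of 15 tested in the machinery list. It passed in all 14 alternatives that gave a value. The 7 endothelial and epithelial markers summed to 366.8 to 564.2 normalized reads in wild-type and 935.1 to 1114 in knockout macrophages, with 2 of 5 tested called higher and none at 0 in every library of either group. The sum does not separate endothelial from epithelial genes. Of the 5 tested, 4 had estimates above 0 and 1 below (median 0.25). The endothelial marker Cdh5 had 32.3, 22.5, 16.6 and 11.8 in wild types and 22.1, 17.2, 2.12 and 25.7 in knockouts, which overlapped. Cdh5 is the only gene of this list shown by library, and it does not stand for the 2 called higher. The part of the 7 markers in the Epas1 difference was not tested. Trib3, a stress pseudokinase gene, had 380.1, 404, 488.5 and 463.1 against 535.3, 535, 563.3 and 563.7 (0.25 ± 0.07, limma adjusted p = 0.0489), and lost its call in 12 of 15 alternatives, including those without wild-type mouse 1, 2 or 4 or knockout mouse 6, 7, 8 or 9. Of 20 other glycolysis genes limma and limma-voom called 0 in macrophages, with 3 higher and 4 lower at an unadjusted p under 0.05. Of 32 other targets of hypoxia-inducible factors both called 0, with 1 higher and 5 lower. Between cell types in wild-type mice, 10 of 20 other glycolysis genes were called lower in macrophages and 7 higher (median -0.14). In knockout mice 7 were lower and 7 higher (median -0.05). Of 32 other targets 23 were lower and 5 higher in wild types, and 20 and 7 in knockouts. Of machinery genes 8 of 16 were lower and 1 higher in wild types, and 6 of 15 lower and 4 higher in knockouts. Of all genes 31.7% were lower and 31.7% higher in wild types, and 29.6% and 31.0% in knockouts.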

How the data were processed

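RNA sequencing libraries from 5 ng of RNA each were made with the SMART-Seq v4 kit, per the labels' protocols. Per the submitters' processing notes, the tools were STAR 2.7.2b, bcl2fastq 2.19.0.316 and DESeq2, with the build GRCm38. What each did, and which annotation was used, is not given in the sources used here. A matrix the authors deposited holds log2 values of 30819 genes in 16 libraries, which from their values follow a regularized logarithm. They also deposited 1 table of wild type against knockout per cell type. Per the file headers, these tables hold a base mean, log2 fold changes with standard errors, a statistic, and p-values and adjusted p-values as deposited by the authors. The base mean was taken here as a signal of size-factor-normalized reads and the statistic as a Wald score of the authors' fit. The headers do not state either. Adjusted p-values were present for 14087 genes. The matrix had 0 columns without a sample.

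The transform was inverted, with the deposited base means, to recover reads. For 20443 genes whose base mean reached 1, 73.6% of recovered values were whole to within 0.05 reads, with 99.5% and 98.4% at base means of 1 to 10 and 10 to 100 and 21.5% above 1000, where the median deviation was 0.0057%. The main test was limma 3.58.1 (R 4.3.3) with trend and robust estimation on the deposited log2 values, with genes kept at a linear value of at least 10 in at least 4 libraries and Benjamini-Hochberg adjustment over all genes tested. Genotypes and cell types were compared in the 8 libraries concerned, and the difference of effects in all 16. Tables and figures were made with Python 3.11.15. Positions come from GENCODE M21 (GRCm38), which matched 30758 of the IDs, and promoter sequences from RefSeq.

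The members, the other lists and the tests were chosen with earlier results of these data known. Library values are given for members called between genotypes or in the difference of effects, with or without the block, for Hif1a, and for the 5 largest falls between cell types; C3 and genes of other lists called between genotypes are named too. Values of Ldha and Adm and of members that overlap through mouse 7 were chosen after their values were seen. Alternatives were no filter, a linear minimum of 50, a median shift, limma without trend and robust estimation, limma-voom on recovered reads, all 16 libraries in 1 fit, the authors' deposited tables, each library left out, and the mouse as a block.

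The titles give macrophages and monocytes of the same mouse, which pairs them. Over all genes tested, deviations from the group means correlated at 0.03 to 0.42 between both libraries of a wild-type mouse and at 0.05 to 0.21 for knockouts. Between different mice they correlated at -0.32 to 0.19 and -0.23 to 0.14. Over the members, values within a mouse were -0.10 to 0.62 in wild types and 0.18 to 0.75 in knockouts. Between different mice the members gave -0.49 to 0.43 and -0.67 to 0.29. No library was a copy of another, with a chi-square per gene of 10.3 to 44.7 over 24 pairs within groups. The labels give no batch or date.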

Additional observations from a re-analysis of the deposited data

Results flagged for a closer look

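In 144 groups of 4 libraries (36 members in 4 groups), 6 had a library far from the other 3, where chance gives about 1 in 20 groups. In macrophages Pfkp stood apart in knockout mouse 8 (8213 normalized reads), Pfkfb3 in wild-type mouse 2 (2206), Egln3 in wild-type mouse 2 (369.2) and Ak4 in knockout mouse 7 (142.5). In monocytes Egln1 stood apart in wild-type mouse 2 (427.5) and Ak4 in knockout mouse 7 (597.7). All 6 were the highest of their group.

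With the mouse as a block, limma called the knockout effect different between macrophages and monocytes for 7 members, each more positive in macrophages: Hilpda (0.67), Ddit4 (0.66), Ndrg1 (0.64), Egln3 (0.47), Slc2a1 (0.44), Slc16a3 (0.39) and Gpi1 (0.30, log2). Without the block none of the 7 passed.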

How the results depend on the processing

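Counts of members called between genotypes moved by more than 1.5 times with the fit, and those between cell types by less. In monocytes the count was 5 in the main setting, 2 with no filter, 2 with limma without trend and robust estimation, 15 with all 16 libraries in 1 fit, 17 in the authors' deposited table, and 1 to 12 with 1 library left out. All genes called there, in either direction, numbered 427, 296, 286, 981, 1329 and 237 to 459 in the same order. No alternative called a member higher there. In macrophages it was 1, and 0 with no filter, without trend and robust estimation, with all 16 libraries or in the authors' deposited table, and 0 to 2 with 1 library left out. All genes called in macrophages numbered 717, 510, 524, 516, 855 and 458 to 656 in the same order. For the difference of effects it was 0, 7 with the mouse as a replicate block, and 0 to 1 with 1 library left out. All genes called for that difference numbered 81 in the main setting and 48 to 125 with 1 library left out. With the block 165 genes had the more positive effect in macrophages and 86 the more negative. Between cell types 33 to 34 members were called in wild-type and 30 to 32 in knockout mice with 1 library left out, and 34 and 33 with the block. All genes called between cell types numbered 7351 to 7782 and 7051 to 7356 with 1 library left out. With the block 4239 genes were lower and 4160 higher in macrophages of wild types, and 3821 and 3952 in those of knockouts. The cause of these changes was not tested. The members' medians kept their sign in every alternative run. On recovered reads with limma-voom, medians between cell types were -1.08 in wild-type and -0.81 in knockout mice, beyond the spread between libraries, since the deposited scale draws values together. With 1 library left out, medians ran from -0.25 to -0.17 in monocytes, -0.10 to -0.04 in macrophages, 0.11 to 0.24 for the difference, -0.81 to -0.73 in wild-type and -0.64 to -0.54 in knockout mice. Among the single-member values tallied, 1312 left the outcome as in the main setting, passed or not. Another 49 lost a call and 45 gained one, and none changed the direction of a call. The tally did not cover every member in every comparison. The block moved the calls of Adm and Aldoc between cell types and of the 7 members named above, and changed no other member's call. With 4 mice a group, a difference that did not pass is not shown to be absent.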
